A study of Solanum lycopersicum with 6 samples.

Results

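Footprints of ribosomes from LTM-treated tomato leaves (2 libraries) were set against footprints from CHX leaves (2 libraries), which makes 4 of the 6 libraries of the series. The other 2 libraries hold mRNA. The libraries were chosen by their sample titles, and the values compared are the read counts over coding regions. All leaves were true leaves of tomato (Solanum lycopersicum), and the labels name no genotype or cultivar. Plants were kept at 28 °C with 12 h of light and 12 h of dark. The labels disagree on plant age, which is 3 weeks under tissue but 2 weeks under treatment. CHX libraries came from polysome extracts made with 100 µg/ml cycloheximide, and their source is given as CHX-treated leaves. LTM libraries came from leaves treated with LTM, at a dose and for a time not given in the sources used here, and their extracts were then treated with puromycin. The mRNA libraries were made after rRNA removal from part of the CHX polysome extract, so they describe leaves without LTM. In both footprint kinds, the gel slice taken covered RNase-protected fragments from 26 to 32 nt. No label says that replicates are separate plants, and the p-values may therefore cover technical spread alone.

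A ribosome covers a short stretch of mRNA and shields it from RNase, and these protected pieces are read as footprints. Cycloheximide arrests ribosomes along the whole coding region, so CHX footprints reflect how many ribosomes are elongating. LTM, which the labels leave unspelled, stands in this field for lactimidomycin, a compound that holds newly assembled ribosomes at start codons while those already elongating run on. Puromycin releases elongating ribosomes early, so the pair of compounds is used to leave footprints mainly at start sites. In leaves, the most heavily translated nuclear genes usually include those for photosynthesis, while early-response genes such as stress transcription factors are usually scarce until a stimulus arrives.

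The purpose of the comparison was to see which leaf genes gain or lose footprints after LTM. The table identifies gene models by identifiers of the form Solyc04g005700.3.1 and pairs none of them with a name. Of 41476 entries in the tomato gene table at hand (RefSeq, assembly SLM_r2.1), 0 carry such an identifier. Whether the models that changed were early-response or photosynthesis genes was therefore not analysed here, and 17 gene lists drawn up for that purpose were not run. Models are described below by size of change, level, mRNA and identifier, and 4 of them by identifier. All 35768 identifiers have the nuclear form, so genes encoded in the chloroplast were not analysed here.

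Total counts ran from 18240140 in LTM replicate 1 to 48704200 in CHX replicate 1, with 38983295 in LTM replicate 2 and 47856048 in CHX replicate 2. Levels are CPM, the count of a model relative to the total of its library, scaled with TMM factors, and are not divided by length. TMM (trimmed mean of M-values) sets the bulk of the models to no change, so "higher" and "lower" are relative to that bulk. Coding-region counts were not split by position, so whether LTM reads lay at start codons was not analysed here. Between replicates, the median absolute difference of a model was 0.26 on the log2 scale in LTM and 0.23 in CHX. A model differed over 4-fold between replicates in 1.71% of those tested in LTM and in 1.80% in CHX.

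LTM and CHX footprints differed in many gene models, and the gains were far larger than the losses. Of 20806 models tested, 8728 (41.9%) differed in edgeR's quasi-likelihood test at a Benjamini-Hochberg adjusted p under 0.05. Of these, 4654 (22.4%) rose in LTM and 4074 (19.6%) fell. The median log2 fold change was 1.80 among models that rose, with an interquartile range of 1.11 to 3.18. Among models that fell it was -0.79, with an upper quartile of -0.62. Over all models tested it was -0.014.

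The imbalance grew with size. For models with 0 counts in one kind, the fold change was taken against 3 counts over the 2 libraries of that kind. On this footing 3713 models (17.8%) rose at least 2-fold and 1021 (4.91%) fell at least 2-fold. At 4-fold these numbers were 2072 (9.96%) and 98 (0.471%), and at 8-fold 1257 (6.04%) and 23 (0.111%). At least 16-fold, 740 models (3.56%) rose and 3 (0.0144%) fell. At least 64-fold, 256 (1.23%) rose and 0 (0%) fell. The fit itself, which extrapolates for models at 0 counts, placed 1283 models (6.17%) at least 8-fold higher, 27 (0.13%) at least 8-fold lower and 1 at least 64-fold lower. The 27 became 74 with LTM replicate 2 left out and 17 with CHX replicate 2 left out. Thus 27.0% of the rising models changed at least 8-fold, against 0.565% of the falling ones.

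**Figure D1:**
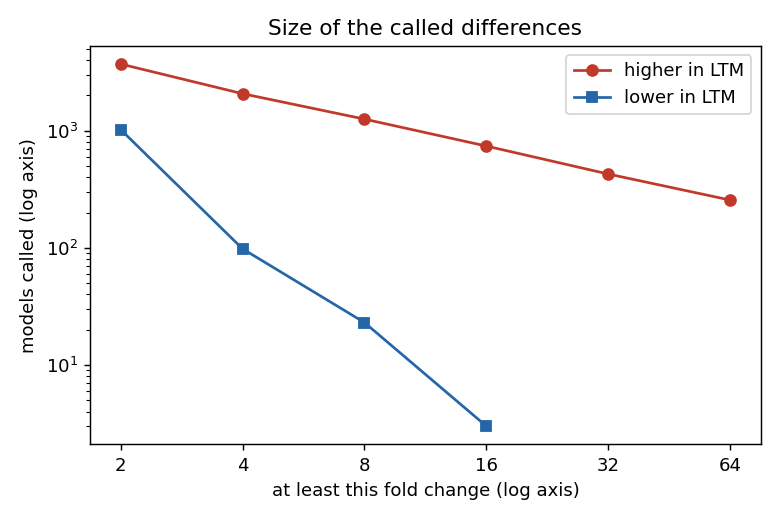
Number of models called in LTM against CHX (vertical, log axis) whose change was at least the fold on the horizontal log axis, with red circles for higher and blue squares for lower in LTM. From 3713 models at 2-fold the rising curve declines to 256 at 64-fold, whereas the falling curve goes from 1021 to 3 at 16-fold and is at 0, not drawn, at 32-fold and 64-fold.

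The split between gains and losses depended on scaling. Scaling to total counts moved the log2 ratios by a median of 0.29 and gave 5812 models higher and 1228 lower, so that 82.6% of calls were upward against 53.3% with TMM. Upper-quartile factors moved the ratios by -0.098 and gave 4292 higher and 5209 lower. Such shifts act on large changes in the same direction. Of the 98 models at least 4-fold lower, 61 were called and at least 4-fold lower with total counts and 98 with upper-quartile factors, and of the 1257 models at least 8-fold higher, 1257 and 1205 were called and at least 8-fold higher. Leaving out LTM replicate 1 left 61 of the 98 and 1181 of the 1257, and leaving out LTM replicate 2 left 74 and 1129. The count of all models lower was 2482 without CHX replicate 1.

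The LTM and CHX libraries did not overlap in nearly all called models, which the call itself favours. Both LTM libraries lay above both CHX libraries in 7231 models (34.8% of those tested) and below both in 7635 (36.7%). Among the called models, 4648 of 4654 risers and 4074 of 4074 fallers did not overlap. Replicates of the 1257 strongest risers were close in LTM, with a median absolute difference of 0.32 on the log2 scale and 4 models over 4-fold. In CHX, where these models had few counts, the median was 0.48 and 92 models differed over 4-fold. For the 98 strongest fallers the reverse held, with a median of 1.01 between the LTM libraries and 0.39 between the CHX libraries.

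Gains and losses sat at different levels of footprint abundance. Among models with a mean of under 1 CPM over the 4 footprint libraries, 23.5% of 4823 rose and 3.86% fell. Models this scarce could enter the test through the libraries of a single kind, LTM, CHX or mRNA. Entry through LTM alone favours risers and entry through CHX alone favours fallers, and the part of either was not tested. From 1 to 10 CPM, 24.2% of 9061 rose and 16.9% fell. From 10 to 100 CPM, 20.0% of 5841 rose and 32.6% fell. At 100 CPM or more, 14.8% of 1081 rose and 41.9% fell. The median log2 fold change went from 0.44 in the lowest class, or 0.43 with models at 0 counts at their limit, through 0.022 and -0.25 to -0.42 in the highest. When every model with a count was tested, the lowest class held 11610 models and its median was 0.33. With total counts these medians were 0.72, 0.31, 0.043 and -0.13, so the sign of the third class depended on scaling. With upper-quartile factors the second was -0.076. With a minimum of 10 CPM in 2 libraries the lowest was 1.33, from 132 models that could reach 10 CPM only in the mRNA libraries. The median standard error of a log2 fold change was 0.47, 0.22, 0.16 and 0.17 from the lowest class to the highest. Small changes in either direction could thus pass the test less easily in the lowest class. The part of this in the shares was not tested.

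Strong risers were scarce in CHX. Of the 1257 models at least 8-fold higher, 48 had a CHX mean of at least 10 CPM, which 6525 tested models reached, and 0 had 100 CPM or more, which 1076 tested models reached. In LTM, 540 of the 1257 had at least 10 CPM and 168 had at least 100 CPM. Strong risers with a high mean over the 4 footprint libraries, 89 of them at 100 CPM or more, thus had that mean through LTM. Models at least 4-fold lower numbered 53 in the class under 1 CPM, 34 and 10 in the middle classes and 1 in the highest. These counts follow in part from the choice of models and are a description.

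**Figure D2:**
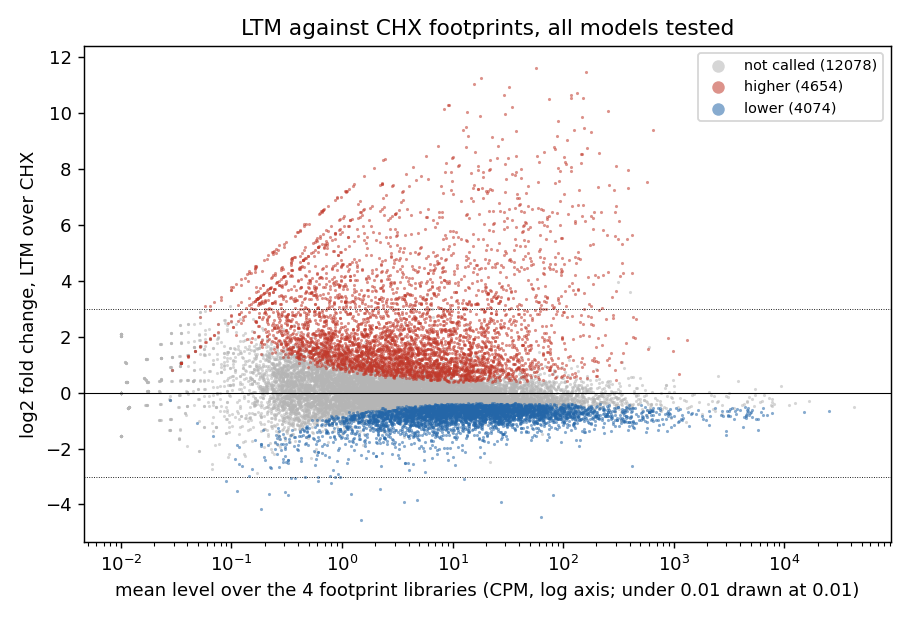
Log2 fold change of LTM over CHX (vertical) against the mean CPM of the 4 footprint libraries (horizontal, log axis) for the 20806 models tested, with models called higher in red (4654), lower in blue (4074) and not called in grey, and dotted lines at 8-fold. Red points spread far above the upper line, at a mean level that includes their LTM counts, while blue points form a band just under 0 that runs to the most abundant models.

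The models with most footprints mainly kept their place and lay slightly lower in LTM. The top 100 lists of LTM and of CHX shared 93 models, and the top 1000 lists shared 738. Of the top 100 CHX models, 55 fell, 0 rose and 45 were not called, with log2 fold changes from -1.52 to 0.59 and a median of -0.63. Ranking by CHX level itself favours fallers, so these counts are a description. Of the top 100 mRNA models, 45 fell and 1 rose, with a median of -0.51. Of all models tested, 19.6% fell and 22.4% rose. At a mean footprint level of 100 CPM or more, 41.9% fell and 14.8% rose. Ranking by mRNA did not use the footprints, but the mRNA came from the CHX extract and was in the same fit. The mRNA list shared 76 models with the CHX list, and its counts are a description as well. The median of the mRNA list was negative under each scaling, from -0.22 with total counts to -0.61 with upper-quartile factors. Its count of fallers was not stable, at 11 with total counts and 16 without CHX replicate 1. For the top 100 CHX models these counts were 13 and 23.

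Strong risers first entered the LTM ranking below the leading models. The top 50 LTM models held 0 risers, the top 100 held 5, of which 1 was at least 8-fold higher, and the top 200 held 30, of which 20 were. Among the top 1000 LTM models 267 (26.7%) had risen, 162 of them at least 8-fold. Among all models tested, 22.4% rose and 6.04% rose at least 8-fold. Ranking by LTM level itself favours risers, so these counts are a description. Among the top 1000 CHX models 29 rose, 0 of them at least 8-fold, and 517 (51.7%) fell, beside 19.6% of all models. Ranking by CHX level in turn favours fallers. LTM counts were spread over more models than CHX counts. The most abundant models that together held 50% of a library numbered 143 and 122 in the LTM replicates, against 76 and 81 in the CHX replicates. For 90% of a library these numbers were 3886 and 3696 in LTM and 2637 and 2777 in CHX.

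The called models held very different parts of the libraries. Models that rose at least 8-fold took 7.78% and 6.46% of the counts of LTM replicates 1 and 2, against 0.200% and 0.206% of the CHX replicates. These shares had means of 7.12% ± 0.933 in LTM and 0.203% ± 0.00422 in CHX (SD, n = 2). All risers together took 15.9% and 13.9% of the LTM counts and 2.55% and 2.73% of the CHX counts. Most of the footprints in falling models belonged to those that fell less than 2-fold, 3053 models with 43.4% and 42.5% of CHX counts and 32.5% and 31.3% of LTM counts. The 98 models that fell at least 4-fold took 0.135% and 0.136% of CHX counts and 0.0251% and 0.0236% of LTM counts. The shares were used to choose the models and are given as a description.

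**Figure D3:**
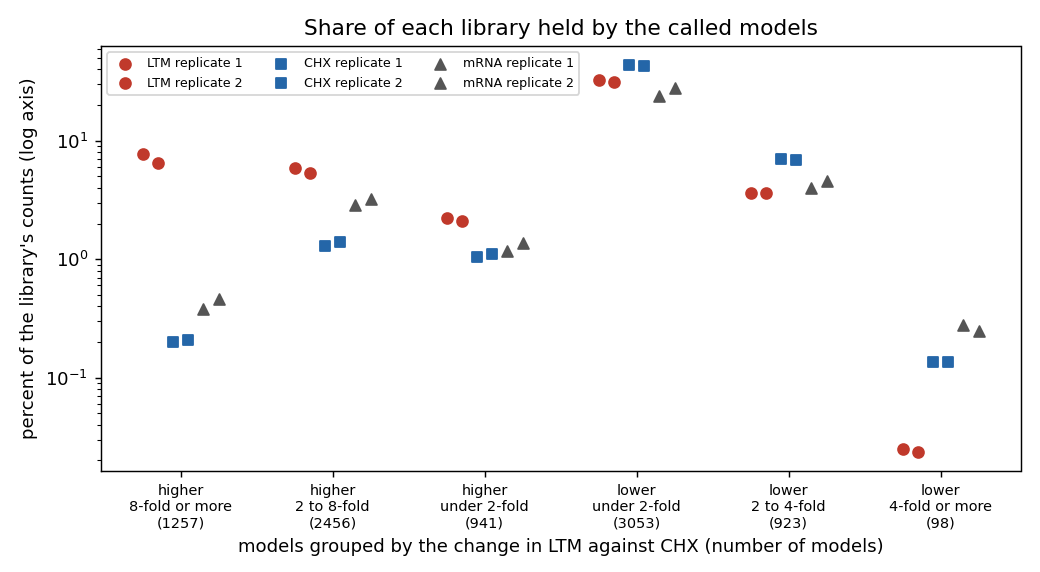
Percent of each library's counts (vertical, log axis) held by models grouped by their change in LTM against CHX (horizontal, with the number of models), 1 point per library, with circles for LTM, squares for CHX and triangles for mRNA. The strongest risers hold 7.78% and 6.46% of LTM against 0.200% and 0.206% of CHX counts, and the models that fell under 2-fold are the largest called group in all 6 libraries.

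A set of 168 models combined an 8-fold or larger gain with an LTM mean of at least 100 CPM. They held 5.80% and 4.77% of the counts of LTM replicates 1 and 2, and 0.137% and 0.135% of the CHX replicates. Their median level was 206 CPM in LTM and 5.55 CPM in CHX, and the CHX mean of each stayed at or under 48.4 CPM. In all 168 both LTM libraries lay above both CHX libraries, as in 34.8% of all models tested. Choosing models by their call, gain and LTM level favours this, so their LTM and CHX values are a description. The mRNA of these models had a median of 4.24 CPM and ran up to 58.8 CPM. It was under 1 CPM in 38 models, from 1 to 10 CPM in 87 and from 10 to 100 CPM in 43. Together they held 0.105% and 0.118% of the counts of the mRNA replicates.

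The models named here are, per direction, those with the highest level in the kind where they were higher among non-overlapping models that changed at least 4-fold. Solyc07g040960.1.1 had 1489 and 1120 CPM in LTM replicates 1 and 2 and 2.33 and 1.54 CPM in the CHX replicates. The libraries of each kind lay close together and far from the other kind. It rose 675-fold by the means of 1304 ± 262 and 1.93 ± 0.557 CPM (SD, n = 2). In edgeR's fit the log2 fold change was 9.40 with an SE of 0.32 and an adjusted p of 1.26e-06. Its mRNA stood at 1.31 and 1.28 CPM, and its rank went from 12850 among CHX models to 95 among LTM models.

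Solyc10g006660.3.1 had 1301 and 967 CPM in LTM and 6.43 and 5.81 CPM in CHX, again with no overlap. It rose 185-fold by the means of 1134 ± 236 and 6.12 ± 0.441 CPM (SD, n = 2). The edgeR log2 fold change was 7.53 with an SE of 0.26 and an adjusted p of 1.26e-06. Its mRNA was also scarce, with a mean of 3.27 ± 0.462 CPM (SD, n = 2). Both models were thus among the 105 most abundant of LTM while ranking 15525 and 11978 by mRNA.

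Among models that fell, Solyc06g073320.3.1 had 144 and 88.4 CPM in LTM and 813 and 625 CPM in CHX. It fell by 2.63 on the log2 scale (SE 0.31, edgeR adjusted p = 0.00043), a 6.18-fold difference of the means. Its mRNA was abundant, at 2490 and 1701 CPM, which ranked it 74 in the mRNA libraries, 191 in CHX and 924 in LTM. Solyc04g005700.3.1 had 5.37 and 18.3 CPM in LTM and 132 and 169 CPM in CHX, so its LTM libraries differed widely but stayed under both CHX libraries. It fell by 3.64 on the log2 scale (SE 0.495, edgeR adjusted p = 0.000962), and the log2 fold change ran from -4.81 with LTM replicate 2 left out to -3.04 with LTM replicate 1 left out. Its mRNA was at 70.8 and 79.6 CPM.

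**Figure D4:**
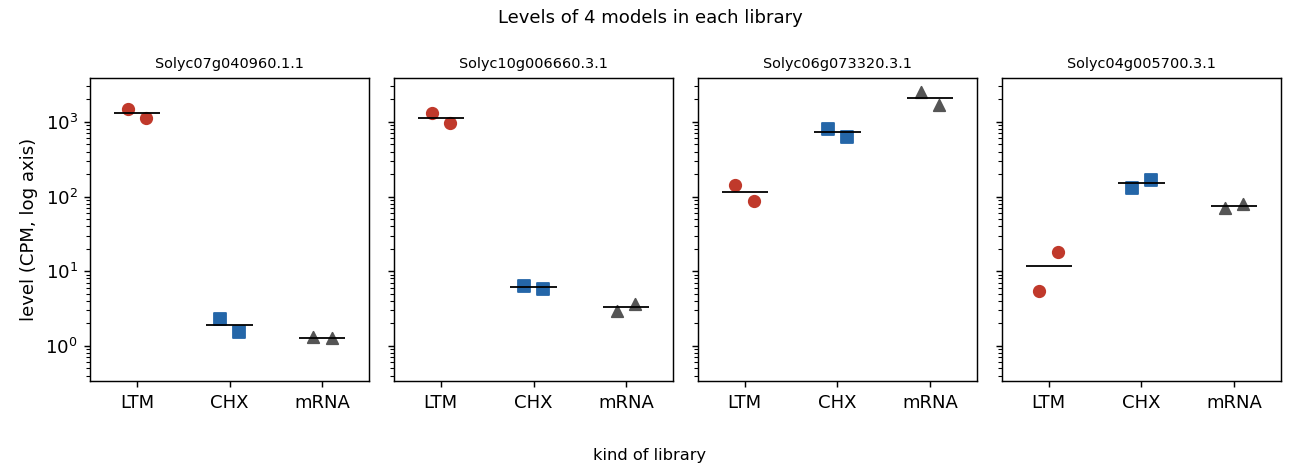
Level in CPM (vertical, log axis) of 4 models in each library, grouped by kind of library (horizontal), with 1 point per replicate and a line at the mean. The first pair of models stands near 1000 CPM or above in LTM and under 7 CPM in CHX and mRNA, and the second pair is lower in LTM than in CHX and mRNA.

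The mRNA of leaves without LTM was low for most strong risers and high for most modest fallers. The median of the mean mRNA level was 0.480 CPM in models that rose at least 8-fold, 2.21 CPM in those that rose 2-fold to 8-fold and 6.72 CPM in those that rose less. It was 3.82 CPM in models that were not called, and 4.60 CPM over all models tested. In models that fell under 2-fold it was 17.4 CPM, and in those that fell 2-fold to 4-fold 10.5 CPM. The 98 strongest fallers were again scarce, at 1.51 CPM. mRNA was under 1 CPM in 809 of the 1257 strongest risers (64.4%), with 0 mRNA counts in 97, against 21.6% of all models tested. It reached 10 CPM in 65 of them (5.17%) and 100 CPM in 5.

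Which changes passed the test depended on the counts, and models with little mRNA could enter through their LTM or their CHX footprints alone. These medians therefore describe the groups and were not tested. The mRNA shared its extract with CHX. Since the mRNA libraries hold no LTM-treated leaves, a gain in footprints from more mRNA and one from more footprints per mRNA cannot be told apart.

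**Figure D5:**
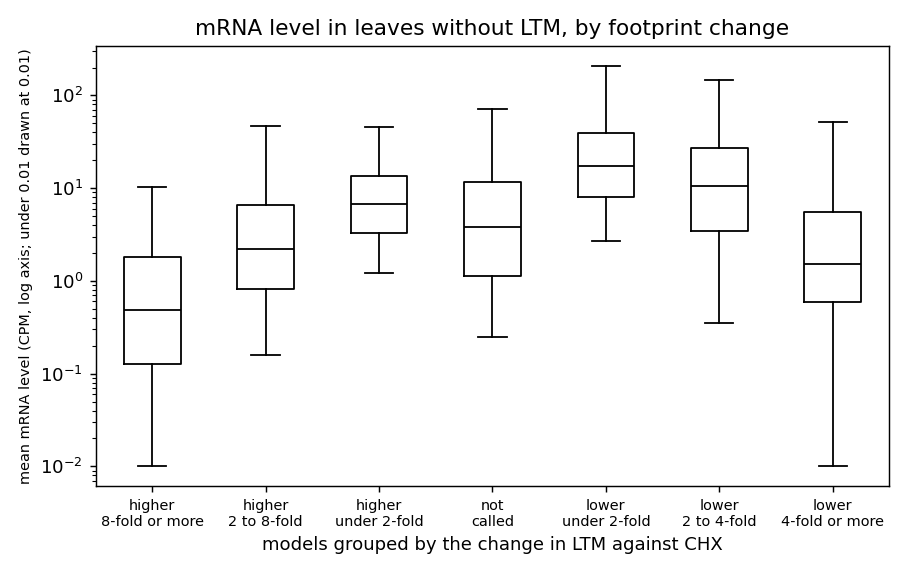
Mean mRNA level of the models (vertical, CPM, log axis) grouped by their change in LTM against CHX (horizontal), with the median as a line, the quartiles as a box and whiskers from the 5th to the 95th percentile. Medians run from 0.480 CPM in the strongest risers to 17.4 CPM in models that fell under 2-fold, and drop to 1.51 CPM in the 98 strongest fallers.

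The identifiers carry a chromosome number, a running number along the chromosome and the version of the gene model. Gains of at least 8-fold were found for every chromosome number, from 4.22% of the tested models of chromosome 11 to 8.16% of chromosome 2, beside 6.04% of all models. Chromosome 2 also had the highest share of risers, 27.5% of 2194 models, and the lowest share of fallers among the numbered chromosomes, 16.3%. Chromosome 11 had 19.1% risers and 20.3% fallers among 1444 models. These shares were not tested.

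Strong risers lay beside each other more often than tested models as a whole. Of 857 models that rose at least 8-fold and whose next model by running number was tested, 163 (19.0%) had a next model in the same group. Among all 14377 tested models with a tested next model, that share was 5.89%. There were 27 runs of 3 or more adjacent strong risers, with 99 models in all and up to 6 in a run. For models that fell at least 4-fold, 8 of 53 had a next model in the same group, against 0.445% of all. The difference between these shares was not tested. Neighbouring models can be near-identical copies, between which the counting may split or drop reads, so values within runs are uncertain, and the part of this in the result was not tested.

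Gains also differed by the version of the model. Of 12927 models at version 1, 30.7% were tested, against 84.9% of 14364 at version 3. Models with few counts could enter the test through the libraries of a single kind, LTM, CHX or mRNA. The part of this in the shares below was not tested. Of 3972 tested models at version 1, 34.4% rose, 11.1% fell and 531 rose at least 8-fold, which is 13.4%. Of 12196 models at version 3, 19.2% rose, 22.5% fell and 488 rose at least 8-fold. Version 2 lay near version 3, with 20.3% and 19.2% of 4572 models. Models at version 1 had less mRNA, with a median of 1.61 CPM against 6.19 CPM at version 3. Among models with under 1 CPM of mRNA, 41.6% of 1595 at version 1 and 30.9% of 1753 at version 3 rose. At least 8-fold, these shares were 24.5% and 14.6%. From 10 to 100 CPM of mRNA, 27.0% of 610 models at version 1 rose and 11.0% of 4040 at version 3, and 2.13% and 1.06% rose at least 8-fold. mRNA levels of the versions within these ranges were not compared, and the part of mRNA level in the difference was not tested. These shares were not tested, and length, which may differ between versions, was not analysed here.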

How the data were processed

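The deposited table holds raw read counts, made by the authors, per gene model and library. Counting covered coding regions in LTM and CHX and transcript regions in mRNA, per the file headers. No source used here states which aligner, counter or genome build was used, or how reads matching several models were handled. Groups and replicate numbers came from the sample titles. R 4.3.3 with edgeR 4.0.16 was used, and DESeq2 1.42.0 as an alternative. Of 35768 models, filterByExpr kept 20806, holding at least 99.95% of each library. TMM factors ran from 0.863 to 1.16. One quasi-likelihood model over all 6 libraries (3 residual degrees of freedom) gave the contrast of LTM with CHX, as a two-sided test with p-values adjusted by Benjamini-Hochberg over every tested model and a threshold of 0.05. The biological coefficient of variation was 0.175, and log2 fold changes had a median SE of 0.22.

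In a single library, 3 counts amount to 0.141 CPM in LTM replicate 1 and 0.0684 CPM in CHX replicate 1. For models with 0 counts in one kind, the limit was 3 counts over the 2 libraries of that kind together, which is a lower CPM. Such limits cover counting error only. On simulated counts for LTM vs CHX (20245 models, 200 of them changed), 61% of 2-fold and 100% of 4-fold changes were recovered, and 4.7% of calls were false. The simulation gave all models the common dispersion and changed only models with at least 50 counts on average. It changed 200 models, whereas 41.9% of the tested models were called in the data. Spread that differs between models and scaling under many changes were therefore not tried. The 4.7% of false calls holds for the simulated counts and cannot be carried over to the calls reported here. Chromosome and version numbers were read from the identifiers by their naming convention. For the falling side of the named models, the 4-fold minimum would have dropped to 2-fold if fewer than 2 models had passed. The members, groups and lists were chosen with earlier results of these data known.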

Additional observations from a re-analysis of the deposited data

How the results depend on the processing

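No call changed direction in any setting. The 4 named models kept their direction and call in all 52 alternatives. The minimum of 10 CPM in 2 libraries, which tested 8292 models, gave 2222 models higher and 1717 lower, with 600 gains and 3 losses of at least 8-fold (1283 and 27 as reported). Total counts gave 1228 lower and 15 at least 8-fold lower. The fit on only the 4 footprint libraries, without mRNA, tested 20113 models. It gave 4514 higher, 2945 lower and 16 at least 8-fold lower, so that 60.5% of calls were upward against 53.3% as reported. With 1 library left out, gains numbered 3585 to 4512 and losses 2482 (CHX replicate 1 left out) to 3520. Gains of at least 8-fold then numbered 1245 to 1391, and such losses 17 (CHX replicate 2 left out) to 74 (LTM replicate 2 left out). The lone library left of a kind was assumed to vary like the others. The cause of these differences between settings was not tested.

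Medians by mean footprint level (under 1, 1 to 10, 10 to 100, 100 CPM or more) came to 0.72, 0.31, 0.043 and -0.13 under total counts. The 10 CPM minimum gave 1.33, from 132 models, then 0.40, -0.043 and -0.22. Upper-quartile factors gave -0.076, -0.34 and -0.52 from the second class upward, and only the 4 footprint libraries gave 0.078 and -0.19 in the middle classes. Leaving out 1 library gave 0.27 to 0.64, 0.0020 to 0.077, -0.28 to -0.19 and -0.47 to -0.37. With calls from total counts, models higher held 17.8% of LTM and 4.22% of CHX counts (14.9% and 2.64% with TMM), and models lower 7.35% and 12.8% (35.5% and 50.05% with TMM).

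Replicate numbers are not stated to pair the libraries. Deviations from the kind means correlated at 0.338 between same-numbered LTM and CHX libraries, and a replicate block gave 5330 models higher and 5296 lower. Leaving out models with discordant replicates and placing models at 0 counts at their limit were chosen after the data were seen. Gene lists were not run for want of names. Depth leaves only a limit for the 333 tested models at 0 counts in CHX and the 193 in LTM.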
